A study of Mus musculus with 24 samples.

Results

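Microglia sorted from mouse brain slices that had been given exosomes of either knockout, named KO1 and KO2, were compared with microglia from slices given phosphate-buffered saline (PBS). The comparison took the 8 libraries with those labels in the microglia table, 3 of KO1, 3 of KO2 and 2 of PBS, out of 24 samples in the series, and all 13950 genes of the 20555 in that table that vary between libraries. Exosomes are small membrane vesicles that cells release. Those used here carried PKH67, a green membrane dye, and were given at 5 µg per slice over 2 days, while control slices received PBS alone. The slices were treated and not mutated, so the knockouts are read as belonging to the cells that made the exosomes, and the series title names CEMIP, a hyaluronan-binding protein, as the tumour exosome cargo under study. Each treatment is labelled A, B and C; microglia of PBS C were not analysed here. The 3 microglia libraries given wild-type (WT) exosomes entered the same fit and serve below as a reference for whether a difference from PBS is shared by exosomes without a knockout.

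All groups were handled alike: the outer ring of the slice was dissected and digested with dispase and collagenase, myelin was removed with beads, and live cells positive for CD45 with low CD11b and low CD49d were sorted. The labels call every microglia sample exosome-positive, the PBS samples included, although these received no dyed vesicles, so the gate on dye in PBS slices is unclear. Nothing in the labels says whether the letters stand for separate animals, slices or exosome preparations. The p-values therefore measure only the spread between these libraries, which may be technical. RNA was measured in bulk, so fewer cells of a type and less RNA per cell cannot be told apart.

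Microglia are the resident macrophages of the brain. When their pattern-recognition receptors meet nucleic acid, lipid or protein from outside, NF-kB drives genes for chemokines and cytokines, and interferon regulatory factors drive interferon-beta. Secreted interferon-beta then acts through its receptor on a large set of interferon-stimulated genes, which includes antiviral proteins and antigen presentation. Resting microglia instead express a homeostatic set that includes Tmem119 and P2ry12.

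The 8 libraries held an estimated 21800000 to 44800000 reads, and 10139 to 11292 genes lay above the value that a gene without reads takes, the floor. Levels below are normalised counts recovered from the deposited variance-stabilised log2 values, and differences are on that log2 scale, each with its standard error (SE). The deposited scale is compressed: a doubling moves it by 0.09 at 100 counts, 0.41 at 1000 and 0.96 at 10000. Sort markers followed the gate. Ptprc, which encodes CD45, stood at 2114 and 1529 with PBS and between 1733 and 3512 with knockout exosomes, and Itgam, for CD11b, at 1877 and 1368 and between 632 and 3379. Itga4, for CD49d, reached at most 92.5 and the endothelial Pecam1 at most 284. Mouse Cemip was listed at 0 in 7 of these 8 libraries and at 5.25 in KO1 C, which says nothing about the donor cells. Of 19 microglia identity genes, 12 to 14 reached 100 counts in each library, and their sum ranged from 55304 to 62630 with PBS and from 49508 to 66482 with knockout exosomes.

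Markers of other cells were present at lower sums. Those of oligodendrocytes, mostly Mbp, ranged from 3961 to 6737 with PBS and from 3201 to 9196 with knockout exosomes. Border-associated macrophage markers ranged from 2767 to 5036 and from 2642 to 9434, highest in KO1 B (9434) and KO2 B (7916), and 4 of 10 members were at 0 throughout. Choroid plexus and ependyma markers were high in PBS A (9028) and KO2 B (12735) and at most 1257 in the other 6. Astrocyte markers ranged from 1101 to 2515 with PBS and from 507 to 1618 with knockout exosomes, and each of the other 8 lists summed to at most 928. No list's sum differed between the 6 knockout and 2 PBS libraries past 0.05 in an exact two-sided permutation test over the 28 arrangements, whose smallest possible p is 0.0357; the lowest p was 0.107, for astrocyte and for monocyte and neutrophil markers.

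The libraries lettered C stood apart from the others, with and without a knockout. On the first principal component, which held 30.1% of the variance, the exosome libraries lettered A lay between 8.85 and 13.5 and those lettered B between 1.28 and 5.07. Both PBS libraries lay at -7.89 and -6.13, and the 3 exosome libraries lettered C at -11.2 to -9.87, on the PBS side. With no PBS library lettered C in the comparison, a response missing from C and a shifted baseline in C cannot be told apart. Results are therefore given with all 6 knockout libraries and again without the C libraries, a choice made after seeing the data.

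Across all 13950 genes, limma called 1 gene for the mean of KO1 and KO2 against PBS at an adjusted p under 0.05 (0.00717% of genes tested), and it was lower. That gene was Pip4k2c, a lipid kinase that acts on phosphatidylinositol 5-phosphate (gene 117150; chromosome 10, 127197067 to 127211628, GRCm38.p6). Pip4k2c stood at 1448 and 1879 normalised counts in the PBS libraries, was listed at 0 in all 3 KO1 libraries, and stood at 0, 0 and 125 in KO2 A, B and C. The groups do not overlap, and all 3 WT libraries were listed at 0 as well. Its log2 difference was -1.33 (SE 0.15, adjusted p = 0.0267, limma), and -1.43 (adjusted p = 0.00499) without the C libraries. The call ended when KO1 A (adjusted p = 0.0651), KO1 B (0.0769), KO2 A (0.0553), KO2 B (0.0515), WT A (0.0501) or WT C (0.0535) was left out. Pip4k2c is not among the 238 genes that the authors list from a likelihood ratio test on these same libraries, whose model is not given. At an unadjusted p under 0.05 there were 693 genes. The number of calls depended on single libraries: it was 108 without PBS A, 134 without PBS B, 0 without KO1 A, 4 without KO1 B, 16 without KO1 C, 2 without KO2 A, 5 without KO2 B, 5 without KO2 C, 6 without WT A, 8 without WT B and 5 without WT C. Without 1 of the PBS libraries, the lone PBS library is assumed to vary like the other groups.

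Taken singly, KO1 against PBS gave 2 calls (0.0143% of genes tested), Pip4k2c again and Atp10a (described below), which was higher, and KO2 against PBS gave 0 (0% of genes tested), with 565 genes at an unadjusted p under 0.05. For KO1 the count was 110 without PBS A, 101 without PBS B, 11 without KO1 A, 17 without KO1 C, 4 without KO2 A, 9 without KO2 B or KO2 C and 6 without WT C. For KO2 it was 99 without PBS A, 101 without PBS B, 14 without KO1 C, 8 without KO2 B, 9 without KO2 C, 4 without WT B and 1 without WT C. Both contrasts use the same PBS libraries, so their likeness is not a result. With so few calls, most of what follows describes levels in single libraries and how the groups sit, and no further gene rose or fell by the test unless it is said to have passed. These fits carry no block for the letter, so the spread they use includes differences between the letters. Calls with the letter as block differ and are given at the end. By position alone, 390 genes (2.80%) had all 6 knockout libraries above both PBS libraries and 435 (3.12%) had all 6 below. For values without ties, 1 of the 28 arrangements of 6 and 2 libraries gives each of these positions, a share of 0.0357. Neither count exceeds that share, but ties at the floor lower both. Among the 5227 genes with a mean of at least 1 above the floor, 177 had all 6 above and 198 all 6 below, near that share. Position alone is therefore not a result about these genes. Leaving out the C libraries, 792 (5.68%) lay above and 826 (5.92%) below. Without those libraries limma called 13 higher and 21 lower genes, and among the 5227 genes with a mean of at least 1 above the floor it called 3 (0.0574%), Cxcl1, Ccl2 and Acod1, all higher.

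**Figure D1:**
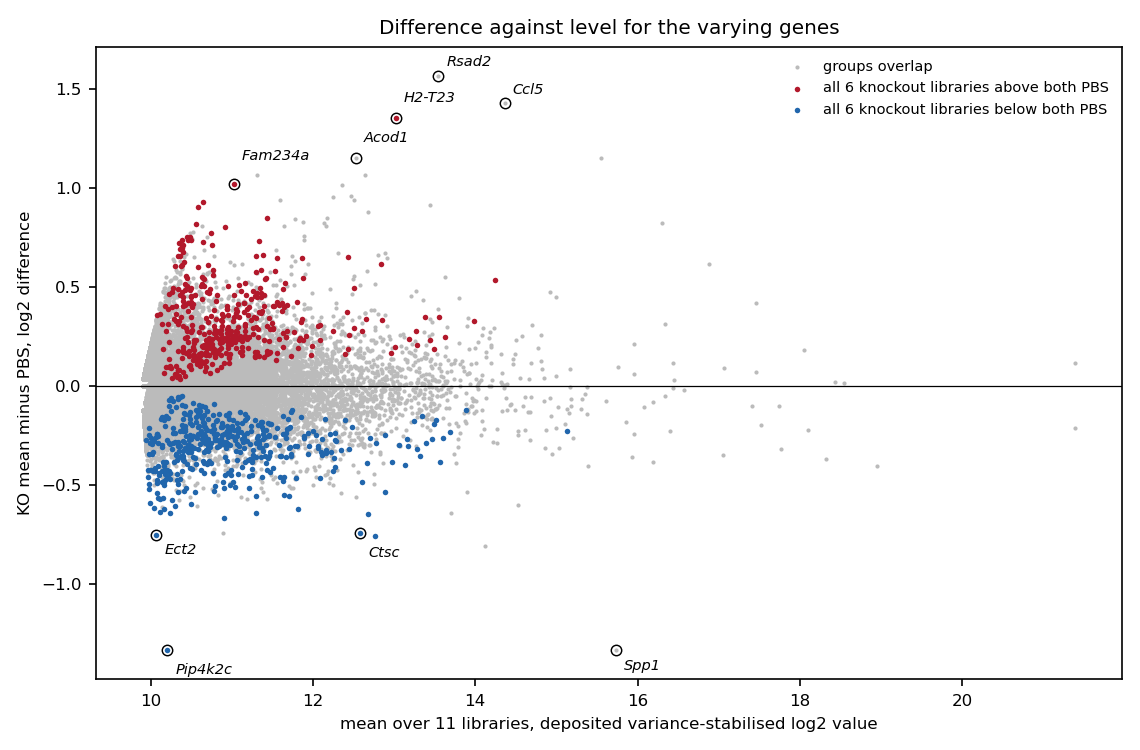
Difference between the knockout mean and PBS (log2, vertical axis) against the mean level over 11 libraries (deposited log2 scale, horizontal axis) for 13950 genes; red and blue points have all 6 knockout libraries above (390) or below (435) both PBS libraries. Circled genes are described in the text: Rsad2 and Ccl5 have large differences with overlapping groups, and Pip4k2c, at -1.33, is the 1 gene called.

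The 12 genes with the smallest p among those higher in all 6 knockout libraries lay above PBS in the C libraries too, by the rule that chose them, and none passed the adjusted threshold. Fam234a, a membrane protein of little-known function (gene 106581; chromosome 17, 26212692 to 26244307), stood at 156 and 0 with PBS, 1593, 1169 and 2110 with KO1 and 1276, 1240 and 1228 with KO2. Every knockout library was thus several times above the higher PBS value, C libraries included, and WT libraries stood at 1040, 1250 and 1599. Its log2 difference was 1.02 (SE 0.16, adjusted p = 0.13, limma), and without PBS A it passed (0.00369). Map3k2, a kinase of the MAP kinase cascade, stood at 177 and 571 with PBS, 1480, 2525 and 1237 with KO1 and 1810, 2197 and 1101 with KO2 (0.66, adjusted p = 0.681). Ints14, a subunit of the Integrator complex that processes small nuclear RNAs, stood at 851 and 1075 with PBS, 2534, 2297 and 1936 with KO1 and 2830, 2832 and 1781 with KO2 (0.55, adjusted p = 0.669). For both genes the lowest knockout library was a C library.

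Of the other higher genes, Fig4, a phosphoinositide phosphatase of endosomes, stood at 570 and 476 with PBS, 1384, 1245 and 2361 with KO1 and 1605, 1444 and 1202 with KO2. Tpcn2, an ion channel of lysosomes, stood at 867 and 644 with PBS, 2874, 2331 and 1411 with KO1 and 1509, 1502 and 1090 with KO2. By the rule of choice, the knockout libraries of both genes lay above PBS, and KO2 C was nearest to it. Nmt1, which attaches myristate to proteins, stood at 4391 and 3979 with PBS, 6784, 6476 and 6727 with KO1 and 7654, 5686 and 6207 with KO2. Dolpp1, a phosphatase that recycles the dolichol carrier of glycosylation, stood at 227 and 405 with PBS, 1039, 1160 and 955 with KO1 and 1042, 764 and 1022 with KO2. For Nmt1 the lowest knockout library lay above both PBS libraries by more than these differed from each other. Rnf216, a ubiquitin ligase, stood at 282 and 1308 with PBS, 1812, 2844 and 2329 with KO1 and 2469, 1764 and 1440 with KO2. Heatr3, which imports a ribosomal protein, stood at 642 and 906 with PBS, 2374, 2290 and 1811 with KO1 and 1912, 2646 and 2099 with KO2. The PBS libraries of Rnf216 differed most from each other, and KO2 C lay just above the higher. The remaining 3 were the transcription factors Tef (0.81) and Atf7 (0.37) and the nuclear protein Sbno1 (0.51). Adjusted p-values of the 12 ranged from 0.13 to 0.878 (limma), and without the C libraries from 0.0567 to 0.738.

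The 12 genes with the smallest p among those lower in all 6 knockout libraries likewise missed the threshold. Ctsc, a lysosomal protease that activates the granule proteases of immune cells, stood at 9995 and 10958 with PBS, 4136, 5538 and 6186 with KO1 and 4317, 6220 and 8742 with KO2. The KO2 C library was nearest to PBS and the A libraries were farthest from it. Its log2 difference was -0.74 (SE 0.188, adjusted p = 0.681, limma), and WT libraries stood at 6481, 5709 and 6437. Klf2, a transcription factor that restrains inflammatory genes in myeloid and endothelial cells, stood at 2091 and 1178 with PBS, 438, 398 and 422 with KO1 and 272, 1086 and 677 with KO2 (-0.51, adjusted p = 0.772). Nkiras2, an inhibitor of NF-kB signalling, stood at 2193 and 2202 with PBS, 924, 948 and 681 with KO1 and 1648, 1209 and 1498 with KO2 (-0.42). In Klf2, KO2 B came close to PBS B, while Nkiras2 was nearest to PBS in KO2. Pld4, an exonuclease of endolysosomes that degrades single-stranded nucleic acid, stood at 1490 and 1747 with PBS, 1215, 818 and 964 with KO1 and 638, 131 and 372 with KO2 (-0.45). KO2 lay lower than KO1 for Pld4 in each letter.

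Of the other lower genes, Dhx38, a helicase of the spliceosome, stood at 2567 and 1785 with PBS, 984, 1468 and 1006 with KO1 and 757, 1174 and 833 with KO2. Slu7, another splicing factor, stood at 4144 and 4256 with PBS, 1577, 2382 and 1878 with KO1 and 1931, 3331 and 2561 with KO2. Spcs3, a subunit of the signal peptidase, stood at 11654 and 9543 with PBS, 6064, 8750 and 6480 with KO1 and 5445, 4398 and 7238 with KO2. Slu7 was at 4469 in WT B, above both PBS libraries, so its lower level was not seen in every exosome library. The others were Tox4 (-0.48), a chromatin protein, Slc35e4 (-0.46), a transporter-like membrane protein, Irgq (-0.64), a protein of the immunity-related GTPase family, and the zinc-finger proteins Zfp871 (-0.51) and Gzf1 (-0.45). Adjusted p-values of the 12 ranged from 0.681 to 0.878 (limma).

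A further set of genes was listed at 0 in every library of one side. Those at 0 in both PBS libraries and present in all 6 knockout libraries with the highest mean level were Mgat4a, which branches N-glycans, Gbp9, an interferon-induced GTPase, Mfsd8, a lysosomal membrane protein, Gabpb2, a subunit of a transcription factor, the thrombin receptor F2r, and Virma, a subunit of the RNA methylation complex. Mfsd8 stood at 253, 543 and 282 with KO1 and 803, 172 and 438 with KO2 (0.82, adjusted p = 0.141, limma). Gbp9 was highest in the A libraries, at 1953, 82.8 and 184 with KO1 and 1049, 520 and 110 with KO2, and KO1 B lay below KO1 C. In the other direction Ect2, a guanine nucleotide exchange factor of cell division, stood at 284 and 310 with PBS and was listed at 0 in all 6 knockout libraries (-0.75, adjusted p = 0.141; 0.00482 without the C libraries, 0.00529 without WT C). Zfp808, Zfp786, Mctp1, Rab36 and Pcsk4 had the same form at lower levels, up to 263 counts in PBS. Mctp1, a calcium sensor of the endoplasmic reticulum, stood at 154 and 72.4 with PBS (-0.59, adjusted p = 0.0698). Its adjusted p lay between 0.000939 (without PBS B) and 0.0474 (without KO1 B) when any library but KO1 A was left out. Pcsk4, a proprotein convertase, passed without any library but KO1 A or KO2 A, with adjusted p from 0.00159 (without PBS A) to 0.0474 (without KO1 B), against 0.13 with all. Of the others, Virma passed without KO1 C (0.0463), Zfp786 without WT A (0.0298), Zfp808 without WT B (0.0458) and Rab36 without PBS A (0.00159) or PBS B (0.0433). Hsf1, the heat shock factor that most cells express, was also listed at 0 in KO1 A, so a listed 0 is not read as absence.

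**Figure D2:**
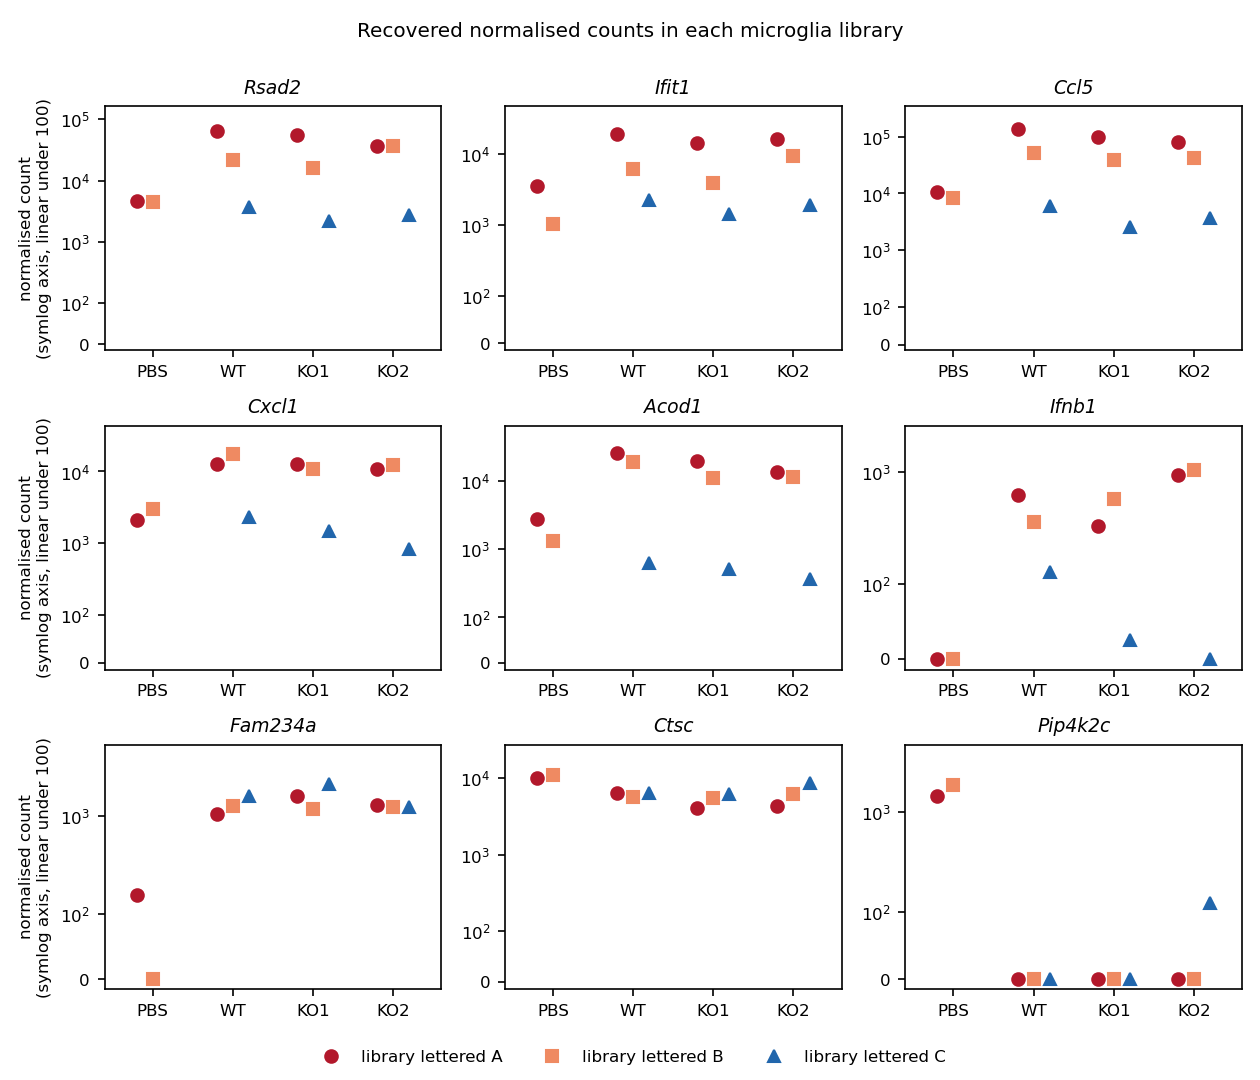
Recovered normalised counts (vertical axes, linear under 100 and logarithmic above) of 9 genes in each of the 11 microglia libraries, grouped by treatment, with marker shape and colour for the letter. Rsad2, Ifit1, Ccl5, Cxcl1, Acod1 and Ifnb1 are higher in exosome libraries lettered A and B than in those lettered C of the same treatment, and Ifnb1, listed at 0 in PBS, is at 129 in WT C and 24.7 in KO1 C, while Fam234a, Ctsc and Pip4k2c separate PBS from the exosome libraries of every letter, apart from the smaller gap of Ctsc in KO2 C.

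By list median, interferon-stimulated genes lay above PBS in knockout libraries lettered A and B and near PBS in those lettered C, though not every member did so. Of 31 members of the type I interferon list, 29 lay above PBS in the mean of all 6 libraries, with a median log2 difference of 0.54, against 7290 of 13950 and a median of 0.01 for all genes. In 17 of 31 all 4 A and B libraries exceeded both PBS libraries (5.68% of all genes), and in 11 of these neither C library did (1.26% of all genes). Among the 5227 genes with a mean of at least 1 above the floor, the matching counts were 404 and 116. In 1 of the 31 all 6 knockout libraries exceeded both PBS libraries. None of the 31 passed the adjusted threshold in limma without a letter block (adjusted p 0.968 or more, and 0.153 or more without the C libraries), and the A and B libraries also differed from each other. The median over the list of the log2 ratio to PBS, on counts plus 10, was 2.87 in KO1 A, 2.49 in KO2 A, 0.53 in KO1 B, 1.91 in KO2 B and 0.00 in both C libraries.

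Rsad2, an antiviral enzyme that makes a chain-terminating nucleotide (gene 58185; chromosome 12, 26442743 to 26456452), stood at 4706 and 4546 with PBS, 55588, 16018 and 2168 in KO1 A, B and C, and 37040, 36458 and 2702 in KO2 A, B and C. That is 11.8-fold PBS A in KO1 A, 7.87-fold in KO2 A, 3.52-fold PBS B in KO1 B and 8.02-fold in KO2 B. Both C libraries lay below both PBS libraries. The log2 difference was 1.57 (SE 1.19, adjusted p = 0.968, limma), and 2.65 (SE 0.703, adjusted p = 0.569) without the C libraries. Ifit1, which binds viral RNA caps, stood at 3481 and 1021 with PBS, 13910, 3912 and 1399 with KO1 and 16060, 9400 and 1915 with KO2 (1.02, SE 0.735). Irf7, the transcription factor that amplifies interferon production, stood at 3417 and 1852 with PBS, 19326, 4325 and 1837 with KO1 and 16643, 11088 and 1021 with KO2 (0.96, SE 0.786). For both genes the B library of KO1 was the lowest of the A and B libraries. Ifi44 was listed at 0 in PBS A and KO1 C, at 1328 in PBS B and at up to 8184 in KO1 A.

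Ifnb1, the gene of interferon-beta, was listed at 0 in both PBS libraries. Ifnb1 stood at 331, 571 and 24.7 in KO1 A, B and C and at 951, 1046 and 0 in KO2 A, B and C, so the A and B libraries held it and the C libraries held little or none. WT libraries stood at 620, 359 and 129. Its log2 difference was 0.74 (SE 0.265, adjusted p = 0.968, limma), and 1.00 (adjusted p = 0.0348) without the C libraries, which passes among all genes but was not tested in the 5227, its mean being too low. Of the interferon-gamma list 13 of 18 lay above PBS (median 0.17), and one of them, Irgm2, a GTPase that acts on vacuoles of intracellular pathogens, exceeded PBS in all letters: 2.09 and 2.82 with PBS, 1882, 504 and 299 with KO1 and 1019, 704 and 397 with KO2 (0.71, adjusted p = 0.704).

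Promoters of 4 genes with this split by letter are shown, since they hold sequence cores of the factors that drive the interferon and NF-kB programmes. RefSeq windows on GRCm38.p6, from 250 bases before to 50 after a gene start, were found for 24 interferon genes and 14 chemokine genes. Capitals mark matches, on either strand, to GAAANNGAA, a core of the interferon response element, or to GGGANTTNC, an NF-kB-like core; a match is a description and not a shown binding site. Rsad2 (chr12:26456403-26456702, minus strand) and Ifit1 (chr19:34640639-34640938, plus strand) hold the interferon core, with 2 of the 3 matches in Ifit1 overlapping each other. Cxcl1 (chr5:90890995-90891294, plus strand) holds the NF-kB-like core and Cxcl10 (chr5:92348840-92349139, minus strand) holds 1 of each.
Rsad2: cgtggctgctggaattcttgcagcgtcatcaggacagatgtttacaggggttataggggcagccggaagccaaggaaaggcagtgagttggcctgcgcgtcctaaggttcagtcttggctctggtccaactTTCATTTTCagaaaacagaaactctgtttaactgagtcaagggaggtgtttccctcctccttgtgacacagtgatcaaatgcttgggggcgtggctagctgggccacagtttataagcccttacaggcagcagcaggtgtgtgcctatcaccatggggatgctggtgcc
Ifit1: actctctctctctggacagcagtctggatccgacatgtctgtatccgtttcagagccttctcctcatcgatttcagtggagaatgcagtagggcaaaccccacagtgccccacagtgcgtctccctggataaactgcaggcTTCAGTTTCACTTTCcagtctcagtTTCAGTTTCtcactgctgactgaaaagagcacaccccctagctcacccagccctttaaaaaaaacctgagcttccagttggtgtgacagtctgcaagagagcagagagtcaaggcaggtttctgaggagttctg
Cxcl10: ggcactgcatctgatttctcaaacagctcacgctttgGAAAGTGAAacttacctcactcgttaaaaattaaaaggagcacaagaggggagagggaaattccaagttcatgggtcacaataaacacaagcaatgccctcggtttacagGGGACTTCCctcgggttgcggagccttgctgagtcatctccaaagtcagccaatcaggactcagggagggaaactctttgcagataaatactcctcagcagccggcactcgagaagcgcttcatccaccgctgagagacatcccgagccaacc
Cxcl1: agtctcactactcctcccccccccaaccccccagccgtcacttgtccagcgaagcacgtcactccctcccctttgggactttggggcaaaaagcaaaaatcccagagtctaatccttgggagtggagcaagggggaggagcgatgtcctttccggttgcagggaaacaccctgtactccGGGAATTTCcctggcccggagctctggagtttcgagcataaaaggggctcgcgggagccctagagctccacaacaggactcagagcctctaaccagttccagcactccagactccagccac

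The interferon core was in 16 of 29 windows of the interferon list (55.2%), in 4 of 14 chemokine windows (28.6%) and in 8.56% of all 32851 windows. The NF-kB-like core was in 5 of 14 chemokine windows (35.7%), in 0 of 29 interferon windows and in 4.26% of all windows. The list of NF-kB components and feedback genes held the NF-kB-like core in 10 of 20 windows. Shares above those of all windows were not particular to these 2 cores. The AP-1 motif TGANTCA was in 8 of 29 interferon and 3 of 14 chemokine windows, against 7.81% of all. A sterol response element core was in 2 of 14 chemokine windows, against 4.36%. A cAMP response element and a PU.1 core were in 0 windows of both lists. Some genes have several windows, as 29 windows belong to 24 interferon genes.

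Chemokines followed the same letters. Of 20 tested, 15 lay above PBS (median 0.23, and 0.44 without the C libraries), 8 had all 4 A and B libraries above both PBS libraries (5.68% of all genes), and in 6 of these neither C library was (1.26% of all genes). Ccl5, which attracts T cells and monocytes (gene 20304; chromosome 11, 83525778 to 83530518), stood at 10743 and 8223 with PBS, 97869, 38332 and 2599 with KO1 and 80836, 41887 and 3705 with KO2. It was thus 9.11-fold and 7.52-fold PBS A in KO1 A and KO2 A, and below both PBS libraries in the C libraries. Its log2 difference was 1.43 (SE 1.43, adjusted p = 0.968, limma). Cxcl1, a neutrophil attractant, stood at 2088 and 3042 with PBS, 12819, 10672 and 1472 with KO1 and 10962, 12304 and 824 with KO2. Ccl2, a monocyte attractant, stood at 1646 and 2221 with PBS, 7930, 8413 and 1927 with KO1 and 6412, 8850 and 2609 with KO2. The A and B libraries of both genes were close to each other and well above PBS, and the C libraries lay near or below PBS. Both passed in limma without the C libraries among genes at least 1 above the floor (log2 differences 1.68 and 1.38, adjusted p = 0.0114 for each), and neither with all libraries and no block (adjusted p = 0.968 for each). Cxcl2, another neutrophil attractant, stood at 16624 and 36883 with PBS, 110964, 86489 and 23770 with KO1 and 56369, 94882 and 13602 with KO2. Cxcl3, of the same family, stood at 3018 and 3445 with PBS, 13049, 18214 and 1998 with KO1 and 15509, 15803 and 1265 with KO2. Cxcl10, an interferon-inducible T cell attractant, stood at 1114 and 1322 with PBS, 7857, 3766 and 756 with KO1 and 5892, 5742 and 363 with KO2. In all 3 genes every A and B library lay above both PBS libraries and KO2 C lay below both. The authors' deposited table, a likelihood ratio test on these same libraries, lists 7 of the 20 chemokines and 13 of the 31 interferon genes among its 238 genes, which are 1.71% of varying genes. The sources used here do not give its model.

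**Figure D3:**
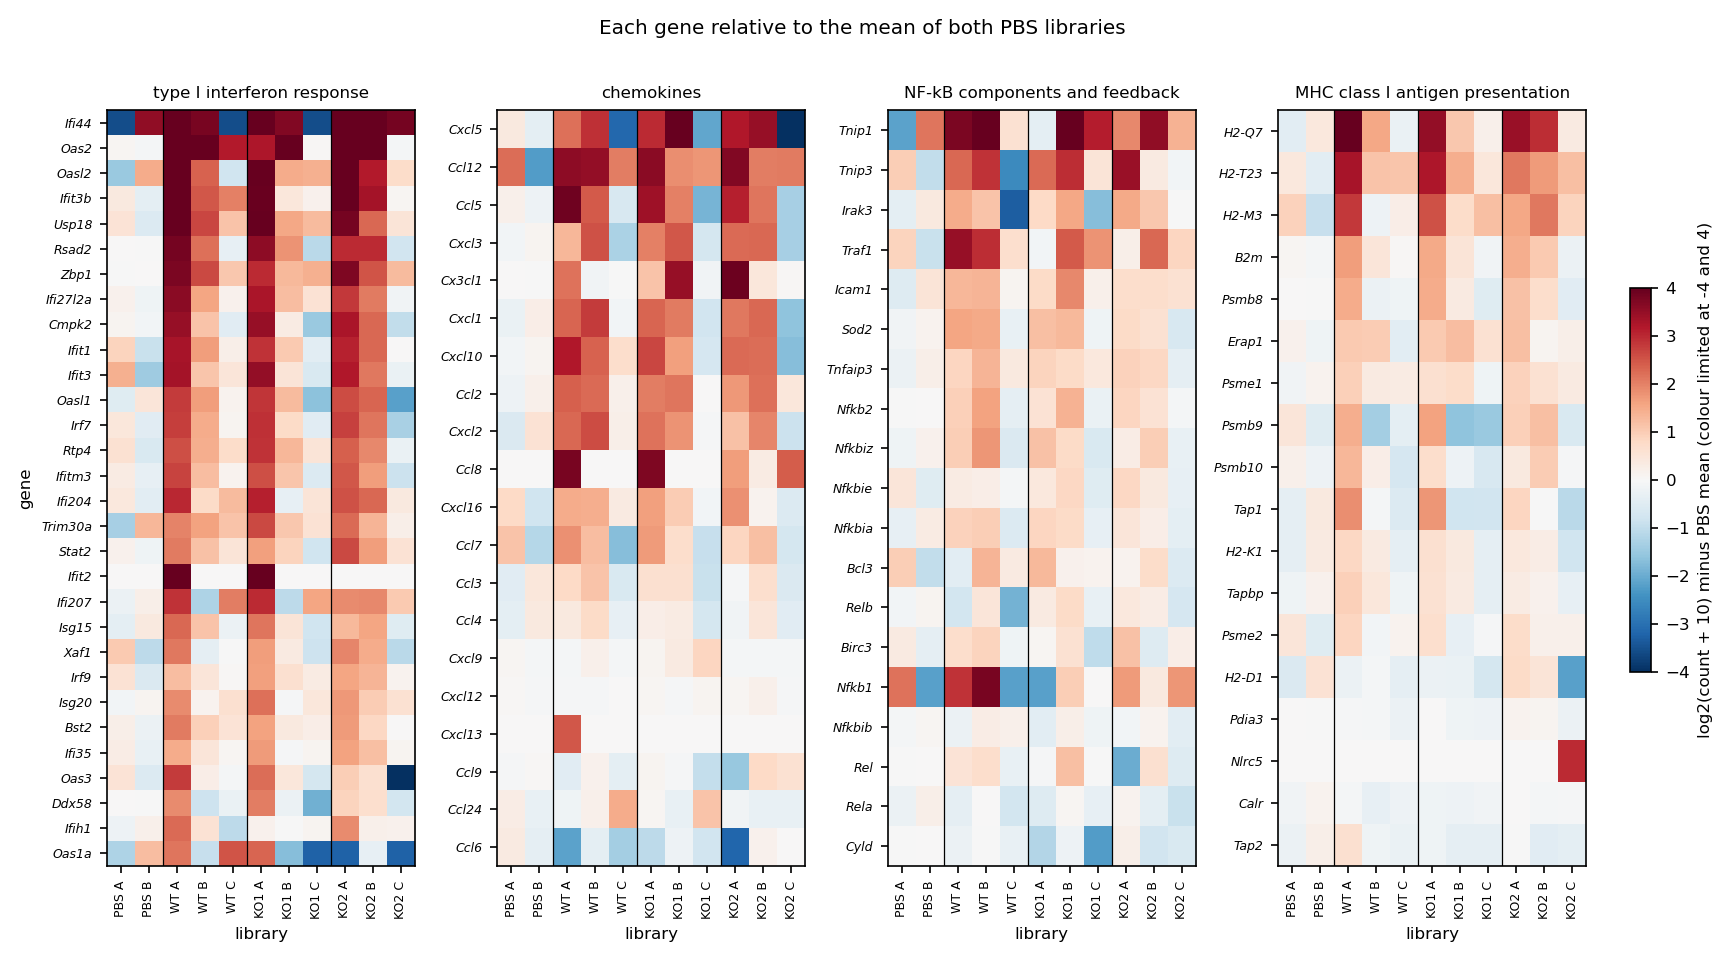
Log2 of counts plus 10 minus the mean of both PBS libraries (colour) for the tested members of 4 gene lists (rows, with 1 interferon gene not shown) in 11 libraries (columns), ordered by the mean of the 4 knockout libraries lettered A or B. The columns lettered A are the reddest for interferon genes, and A and B are alike in colour for most chemokines. By list median the columns lettered C are near white or blue, with red cells for some genes, such as Ifi44 in KO2 C. Of the WT columns, C has the lowest median in each list, but single genes differ in their order by letter.

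Among enzymes and cytokines of activated macrophages, Acod1 had the clearest split. Acod1 makes the antimicrobial metabolite itaconate (gene 16365; chromosome 14, 103047012 to 103056573) and stood at 2780 and 1321 with PBS, 19745, 11214 and 514 with KO1 and 13658, 11627 and 368 with KO2. The A and B libraries were 4.91-fold to 8.8-fold the PBS library of their letter, and the C libraries were below PBS. The log2 difference was 1.15 (SE 1.05, adjusted p = 0.968, limma) with all libraries, and 2.09 without the C libraries, where it passed among genes at least 1 above the floor (adjusted p = 0.0114). In the authors' likelihood ratio test, on these same libraries, Acod1 has an adjusted p of 2.16e-49. The model of that test is not given, so the value is neither a test of knockout against PBS nor independent support. Cybb, the catalytic subunit of the phagocyte NADPH oxidase, stood at 852 and 1853 with PBS, 3336, 10380 and 293 with KO1 and 4391, 5347 and 474 with KO2 (0.63, SE 0.681), again with only the A and B libraries above PBS.

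Most NF-kB components and inflammatory cytokines lay above PBS in the mean, and the prostaglandin list lay on both sides. Of the NF-kB list 16 of 19 lay above PBS (median 0.12, 0.23 without C), and 7 had all A and B libraries above both PBS libraries (5.68% of all genes). Sod2, the mitochondrial superoxide dismutase, stood at 6945 and 8406 with PBS, 17533, 18973 and 6729 with KO1 and 12933, 11769 and 4892 with KO2. Tnfaip3, which switches NF-kB off, stood at 8365 and 11774 with PBS, 18391, 17028 and 13265 with KO1 and 18697, 17783 and 7770 with KO2. Both genes were above PBS in the 4 A and B libraries, and Tnfaip3 also in KO1 C. Tnf, the inflammatory cytokine, stood at 3596 and 4804 with PBS, 8954, 8256 and 4467 with KO1 and 9574, 7328 and 4892 with KO2 (0.58, SE 0.347). Il1rn, the antagonist of interleukin-1, stood at 58454 and 113320 with PBS, 176328, 123348 and 92203 with KO1 and 125302, 160889 and 62600 with KO2. Both genes were above PBS in the A and B libraries, Il1rn only just in KO1 B. Ptgs2, the inducible cyclooxygenase, stood at 10271 and 9156 with PBS, 21977, 25984 and 3987 with KO1 and 19824, 19362 and 3821 with KO2. Ptges, the prostaglandin E synthase downstream of it, stood at 2252 and 4763 with PBS, 24080, 9170 and 2993 with KO1 and 6431, 13544 and 1815 with KO2. For Ptgs2 the C libraries lay below both PBS libraries by more than the gap between those 2. None of these 6 genes passed in limma with all libraries and no block, and the prostaglandin list as a whole was balanced, 6 higher and 7 lower.

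In the mean of all 6 knockout libraries, class I antigen presentation genes lay mostly above PBS and class II genes mostly below. Of the class I list 14 of 18 lay above PBS (median 0.11), and of the class II list 2 of 11 (median -0.14). Without the C libraries the counts were 16 of 18 (median 0.30) and 6 of 11 (median 0.02). For both classes the list medians by library were lower in C than in A and B. Those of class I were 0.18 to 0.82 in A and B, and -0.18 and -0.14 in C. Those of class II were -0.02 to 0.35 in A and B, and -1.53 and -1.34 in C. B2m, the light chain of class I molecules, stood at 57418 and 51438 with PBS, 156787, 78004 and 49609 with KO1 and 147522, 112262 and 46459 with KO2 (0.82, SE 0.615). H2-T23, the class Ib molecule Qa-1, stood at 4444 and 2427 with PBS, 30983, 8961 and 4496 with KO1 and 14061, 10758 and 7526 with KO2 (1.35, SE 0.641, adjusted p = 0.968, limma). H2-T23 was above PBS in all 6 knockout libraries, by 6.97-fold in KO1 A against PBS A and least in KO1 C. H2-Q7, another class Ib gene, stood at 177 and 327 with PBS, 2865, 523 and 276 with KO1 and 2711, 1925 and 309 with KO2, with the A and B libraries above PBS. Class I genes are near-identical in parts, so reads may have been split between them. H2-Ab1, a class II chain, stood at 936 and 3966 with PBS, 1830, 1632 and 603 with KO1 and 2521, 2874 and 510 with KO2. H2-Aa, its partner, stood at 136 and 1337 with PBS, 469, 63.8 and 0 with KO1 and 897, 582 and 0 with KO2. Both were lowest in the C libraries and far apart between the PBS libraries, and the difference of H2-Ab1 was -0.24 with both PBS libraries and 0.27 without PBS B.

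**Figure D4:**
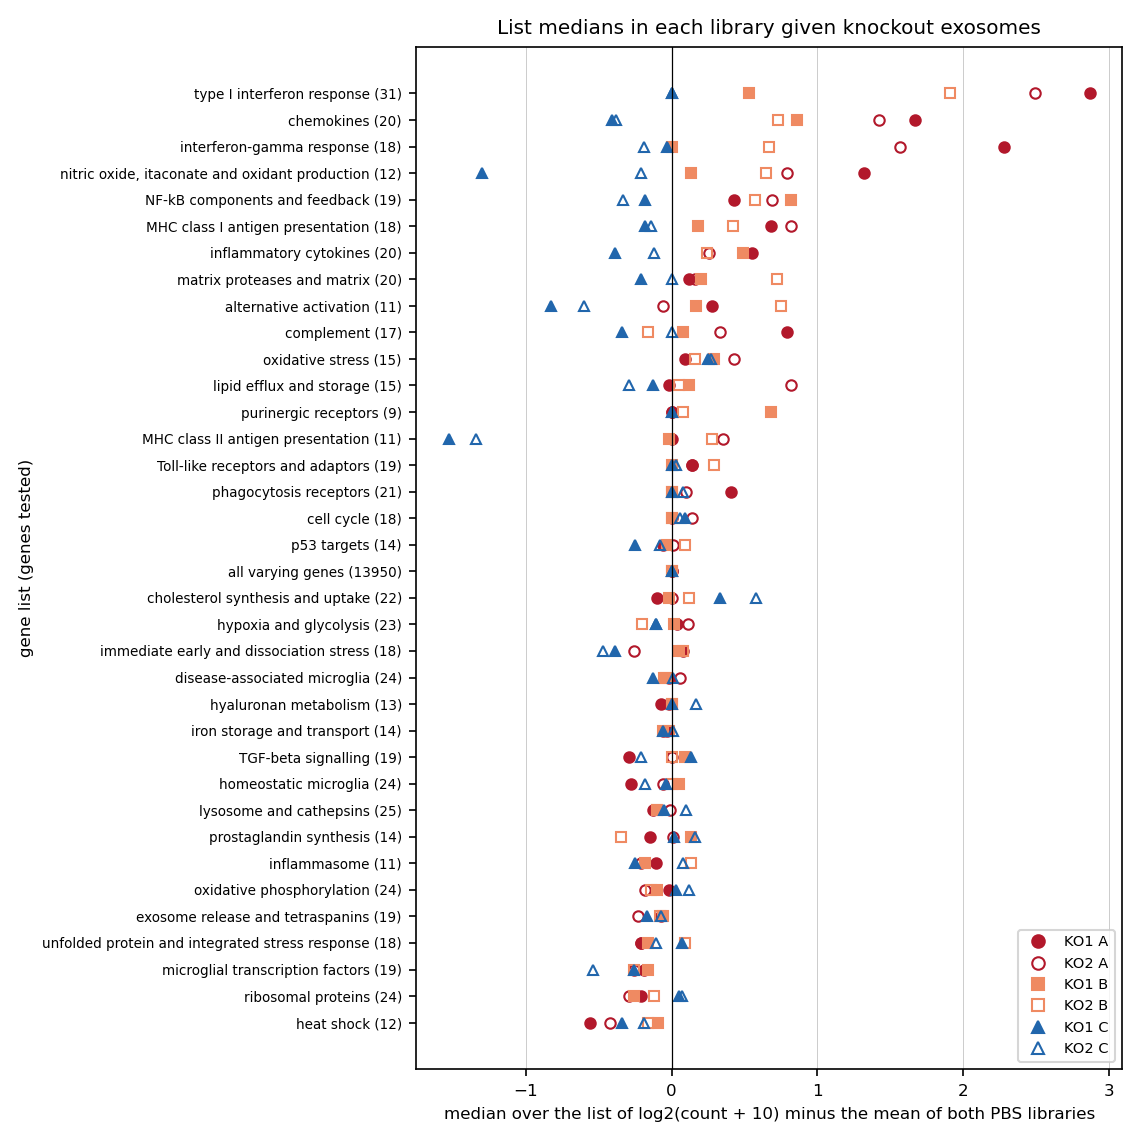
Median over each gene list of log2 of counts plus 10 minus the PBS mean (horizontal axis) in each of the 6 libraries given knockout exosomes, for 35 lists and all varying genes; filled symbols are KO1, open symbols KO2, and shape and colour give the letter. The interferon list reaches 2.87 in KO1 A and lies at 0.00 in the C libraries, and class II antigen presentation reaches -1.53 (KO1 C) and -1.34 (KO2 C).

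Genes of microglial identity and state lay on both sides of PBS, and none passed. Of the identity list 11 of 19 lay above PBS (median 0.00), of the homeostatic list 10 of 24 (median -0.10) and of the disease-associated list 14 of 24 (median 0.03), against a median of 0.01 over all genes. Tmem119, a membrane protein that marks resting microglia, stood at 432 and 294 with PBS, 36.5, 184 and 139 with KO1 and 0, 81 and 186 with KO2, below PBS in all 6. Siglech, a lectin of microglia, had the opposite order, 48 and 135 with PBS, 660, 781 and 261 with KO1 and 999, 614 and 438 with KO2, above PBS in all 6. Their log2 differences were -0.30 and 0.39, and neither passed (adjusted p = 0.968 for both, limma). P2ry12, the other homeostatic gene named above, was at the floor in both PBS libraries and in every knockout library but KO1 B. It therefore gives no comparison here.

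Spp1, the secreted phosphoprotein osteopontin, had the most negative difference of the disease-associated list, and it rested on PBS A. Spp1 stood at 272166 and 57817 with PBS, 59049, 27873 and 27211 with KO1 and 130926, 128773 and 44884 with KO2 (-1.33, SE 0.705). Without PBS A, which also held choroid plexus markers, the difference was 0.00; the part of those cells in it was not tested. Itgax, the integrin CD11c, stood at 312 and 199 with PBS and at no more than 39.3 in any knockout library (-0.56, adjusted p = 0.772).

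Receptors for engulfment and lysosomal enzymes held members on both sides of PBS. Of the phagocytosis list 13 of 21 lay above PBS (median 0.09), among them Cd300lf, a receptor for phosphatidylserine, at 0 and 57.3 with PBS, 1965, 655 and 519 with KO1 and 504, 745 and 497 with KO2 (0.77, adjusted p = 0.681, limma). Fcgr1, the high-affinity receptor for IgG, stood at 1775 and 480 with PBS, 5097, 1488 and 1815 with KO1 and 7080, 3886 and 2527 with KO2. Cd300lf was above PBS in every letter, whereas KO1 B held less Fcgr1 than PBS A. Of the lysosome list 10 of 25 lay above PBS (median -0.05). Besides Ctsc, the protease Ctsd stood at 514743 and 433475 with PBS, 266447, 421330 and 530458 with KO1 and 285046, 272186 and 594144 with KO2, with the C libraries above both PBS libraries and the A and B libraries below. Npc2, which carries cholesterol out of lysosomes, stood at 22440 and 32609 with PBS, 51313, 35491 and 23976 with KO1 and 56067, 35940 and 28024 with KO2, with the A and B libraries above both PBS libraries. Among matrix genes (14 of 20 above PBS, median 0.15), Thbs1, thrombospondin-1, stood at 7291 and 2664 with PBS, 12694, 7902 and 1633 with KO1 and 18038, 15645 and 981 with KO2. Without PBS B its difference was -0.01 in place of 0.51. Plau, the urokinase protease, stood at 112 and 182 with PBS, 4638, 1854 and 61.7 with KO1 and 315, 355 and 117 with KO2. Plau was far higher in KO1 A and KO1 B than in any KO2 library.

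Heat shock and ribosomal protein genes lay mostly below PBS, and oxidative stress genes mostly above. In the heat shock list 11 of 12 were lower (median -0.25), with Hsph1, a co-chaperone, at 9137 and 5287 with PBS, 3532, 7005 and 6868 with KO1 and 3651, 4639 and 4128 with KO2. The inducible Hsp70 genes Hspa1a (-0.64) and Hspa1b (-0.81) were also lower in the mean; they are near-identical copies, so their shares are uncertain. Groups overlapped for all 3. The ribosomal list had 20 of 24 lower by a small margin (median -0.08), and its medians by library were negative in A and B (-0.29 to -0.12) and 0.05 and 0.07 in the C libraries. Rpl8, of the large subunit, stood at 5994 and 7339 with PBS, 4722, 5141 and 5622 with KO1 and 4559, 4425 and 5626 with KO2, below PBS in all 6 libraries; processed pseudogenes may share its reads. The oxidative stress list had 13 of 15 higher (median 0.14), with Srxn1, which repairs peroxiredoxins, at 15915 and 17701 with PBS, 20156, 31647 and 22375 with KO1 and 32237, 22216 and 19674 with KO2, above PBS in every letter. The list medians of the 6 knockout libraries were all positive, 0.09 to 0.43, in every letter.

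Immediate early genes, which cell dissociation also induces, had 14 of 18 members below PBS (median -0.18, -0.09 without C). Btg2, an antiproliferative factor of that list, stood at 3406 and 4276 with PBS, 1300, 2792 and 1841 with KO1 and 2579, 3218 and 2085 with KO2. Egr1, a transcription factor, stood at 2977 and 3459 with PBS, 1679, 3879 and 1332 with KO1 and 941, 3681 and 1838 with KO2. Btg2 was below PBS in all 6 libraries, and Egr1 was above PBS in both B libraries. Among genes of glycolysis and hypoxia (15 of 23 below PBS, median -0.06), Hk1, a hexokinase, stood at 3260 and 3492 with PBS, 2007, 1969 and 3117 with KO1 and 1446, 1663 and 1905 with KO2. Slc16a3, a lactate exporter, stood at 2217 and 891 with PBS, 614, 337 and 807 with KO1 and 481, 307 and 499 with KO2. Trf, the iron carrier transferrin, which oligodendrocytes and choroid plexus also express, stood at 5858 and 4656 with PBS, 1994, 4102 and 2775 with KO1 and 1673, 4031 and 2517 with KO2. All 3 lay below PBS in all 6 libraries and none passed in limma (adjusted p = 0.932 for Hk1, 0.944 for Slc16a3 and 0.968 for Trf).

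In the remaining lists the median difference lay between -0.14 and 0.09, and no member passed in limma with all libraries and no letter block. Above PBS were 12 of 19 Toll-like receptor genes, 12 of 17 complement genes, 13 of 20 inflammatory cytokines, 6 of 11 inflammasome genes, 8 of 12 genes of nitric oxide and itaconate production and 7 of 11 of alternative activation. Of metabolic lists, 12 of 22 cholesterol synthesis genes, 9 of 15 lipid efflux genes, 6 of 14 iron genes and 9 of 24 oxidative phosphorylation genes were above. The counts were 6 of 18 for the unfolded protein response, 9 of 19 for TGF-beta signalling, 7 of 13 for hyaluronan metabolism, 12 of 18 for the cell cycle and 5 of 14 for p53 targets. They were 6 of 19 for exosome release, 3 of 19 for microglial transcription factors and 5 of 9 for purinergic receptors. Among all genes 7290 of 13950 lay above PBS.

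The 2 knockouts were compared with each other, and limma called 1 gene (0.00717% of genes tested), Atp10a, a phospholipid flippase (gene 11982; chromosome 7, 58656142 to 58830244). Atp10a stood at 402, 634 and 270 in KO1 A, B and C and was listed at 0 in all KO2, WT and PBS libraries, a log2 difference of 0.84 (SE 0.0918, adjusted p = 0.021). No other gene passed, and 508 had an unadjusted p under 0.05. The count was 12 without KO1 A, 2 without KO1 B, 8 without KO1 C, 13 without KO2 A, 5 without KO2 B and 10 without KO2 C, and 5 without PBS A, PBS B, WT A or WT B. By smallest p the next higher in KO1 were Tsc1, a brake on mTOR signalling, at 3456, 3007 and 2691 in KO1 and 1290, 390 and 1317 in KO2, Ttll4 and Ampd2. Ttll4, a tubulin glutamylase, stood at 2350, 2654 and 1551 in KO1 and 1060, 763 and 364 in KO2. Ampd2, an AMP deaminase, stood at 2246, 2542 and 2468 in KO1 and 769, 1433 and 1171 in KO2. KO1 and KO2 did not overlap in any of these 3 genes, whose adjusted p-values were 0.492, 0.61 and 0.61. Higher in KO2 were Ccng1, a p53-induced cyclin, at 774, 1371 and 2040 in KO1 and 3102, 3342 and 3184 in KO2, Zfyve1 and Pias2. Zfyve1, a lipid-binding protein of the endoplasmic reticulum, stood at 432, 466 and 609 in KO1 and 1211, 1218 and 1111 in KO2. Pias2, a SUMO ligase, stood at 713, 1181 and 1570 in KO1 and 2435, 2983 and 2271 in KO2. None of the 3 passed (adjusted p = 0.541, 1 and 1). For the interferon and chemokine genes the intervals were wide: KO1 minus KO2 was -0.25 for Rsad2 (95% interval -2.85 to 2.36) and 0.19 for Acod1 (-2.12 to 2.50). For Rsad2 the sign turned without KO1 C (0.81), KO2 A (0.31) or KO2 B (0.30), and for Acod1 without KO1 A (-0.49), KO1 B (-0.09) or KO2 C (-0.72). Differences within these intervals were not detectable in these libraries.

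Microglia given WT exosomes were the reference for what the knockout adds. Against WT, limma called 0 genes for the knockout mean (0% of genes tested), with 437 at an unadjusted p under 0.05, and 29 called without the C libraries. Leaving out 1 library gave 4 calls without KO1 A, 1 without KO1 C or KO2 B, 3 without WT A, 7 without WT B and 9 without WT C. Knockout and WT share the PBS libraries as baseline and the letters, so values are set side by side. Rsad2 stood at 65216, 21447 and 3671 in WT A, B and C, Ccl5 at 138615, 51582 and 6032 and Acod1 at 26035, 19315 and 630, with the same order of letters as in the knockouts described above. The interferon list's median difference from PBS was 0.49 in KO1, 0.70 in KO2 and 0.61 in WT, and its median for the knockout mean minus WT was -0.07. For chemokines these were 0.20, 0.20, 0.34 and -0.13. The knockout mean minus WT was -0.25 for Rsad2 (95% interval -2.51 to 2.00), -0.62 for Ccl5 (-3.33 to 2.10) and 0.06 for Fam234a (-0.25 to 0.36). The sign turned without KO1 C, KO2 C or WT A, to 0.28, 0.30 and 0.70 for Rsad2 and to 0.08, 0.01 and 0.45 for Ccl5. These intervals do not show that knockout and WT exosomes act alike, and those of the interferon and chemokine genes admit several-fold differences either way.

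**Figure D5:**
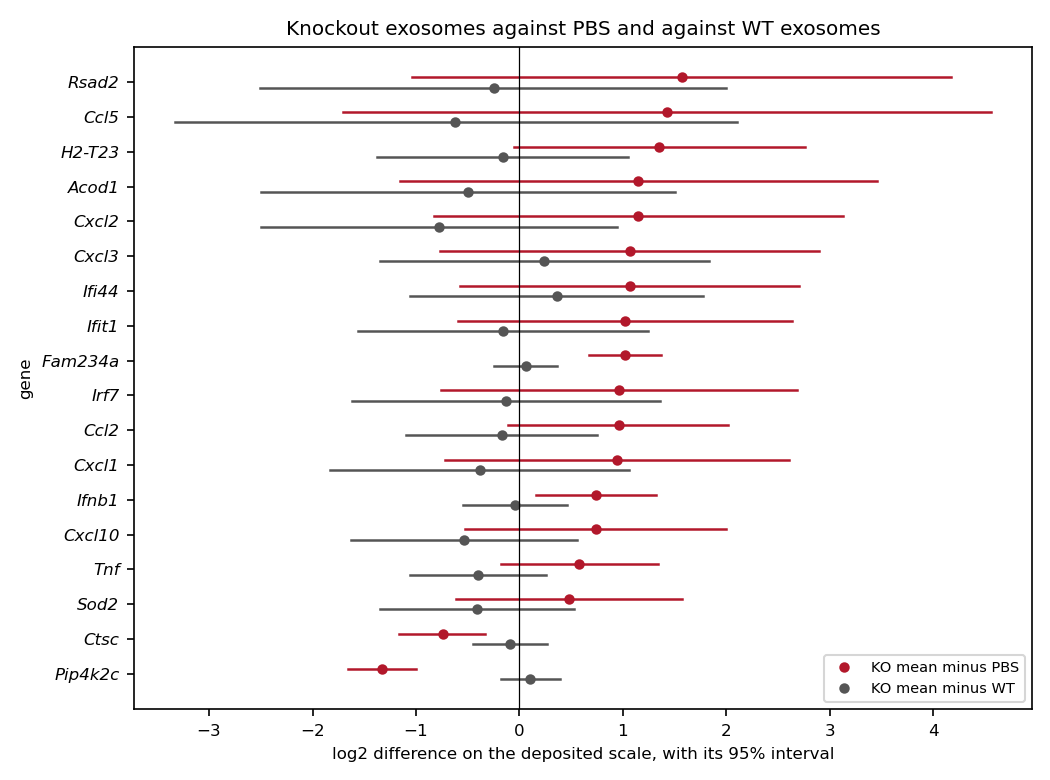
Log2 difference on the deposited scale (horizontal axis) with its 95% interval from the limma fit for 18 genes, for the knockout mean minus PBS (red) and minus WT (grey). The intervals of Pip4k2c, Ctsc, Fam234a and Ifnb1 against PBS lie off 0 before adjustment for the 13950 genes, and the intervals against WT of these 18 genes include 0.

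By smallest p, the genes highest in the knockouts against WT were Hdac2, a histone deacetylase, Mdm4, an inhibitor of p53, and Atp6v0a2, a subunit of the vesicular proton pump. Hdac2 stood at 2158, 931 and 1919 with WT, 3450, 3775 and 3392 with KO1 and 2923, 3058 and 2410 with KO2 (0.50, adjusted p = 0.997, limma). PBS lay at 2442 and 2490, above all WT libraries and below all knockout libraries but KO2 C. Lowest were Ap3d1, a subunit of the adaptor for lysosome-related traffic, the deubiquitinase Usp4, and Me1, a malic enzyme that supplies NADPH. Ap3d1 stood at 6856, 6037 and 6549 with WT, 2210, 3051 and 4700 with KO1 and 5081, 3944 and 4840 with KO2 (-0.55, adjusted p = 0.997). PBS lay at 4223 and 4671 for Ap3d1, on the knockout side of WT.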

How the data were processed

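RNA of microglia sorted from mouse brain slices was sequenced in bulk. The submitters' processing notes name FastQC 0.11.7, Trimmomatic 0.38, Salmon 0.10.0, DESeq2 1.18.1 and the build GRCm38.p6. The authors deposited a table of variance-stabilised log2 values for 11 microglia libraries and 20555 genes, and a table of 238 genes with the mean normalised count (a coverage-type signal), a test statistic (a score) and p-values of a likelihood ratio test. No column of per-sample values was left unmapped (0 columns). Levels were recovered by a curve through the authors' mean counts and the lowest steps of the deposited values; the largest error on those genes was 0.099%, and 0.983% on genes held out. The libraries held an estimated 21800000 to 44800000 reads.

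Group means of all 11 libraries were fitted to the deposited log2 values of the 13950 varying genes with limma 3.58.1 (R 4.3.3, moderated test with trend, Benjamini-Hochberg adjustment at 0.05) and contrasted. The fit was tested on simulated data with known changes. Alternatives were a filter (mean at least 1 above the floor), the letter as block, array weights, other scales, and leaving out each library. Motifs were searched in RefSeq promoter windows, and symbols came from RefSeq for 20537 gene IDs. Depth limits precision at low levels, where 1 read is worth 0.618 to 1.26 normalised counts.

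Genes named were the 12 of smallest p on each side with all knockout libraries beyond both PBS libraries (mean at least 1 above the floor, no predicted genes), up to 4 members of each list by size of difference and any past the threshold, up to 6 genes at the floor on one side, 3 genes in each direction of the other contrasts under the conditions of the first, and the sort markers with Cemip. Cxcl1 and P2ry12 fall outside this rule and were chosen after their values were seen, as were genes named only for a changed call. The members and lists were chosen with earlier results of these data known. Some list members are not reported here by name.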

Additional observations from a re-analysis of the deposited data

Results flagged for a closer look

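Atp10a was the 1 gene whose difference from PBS differed between the 2 knockouts, tested as the contrast of KO1 and KO2 within one limma fit. KO1 minus KO2 was 0.84 on the log2 scale (SE 0.0918, adjusted p = 0.021), with 402, 634 and 270 counts in the KO1 libraries and a listed 0 in every other library. The call was lost with the letter as block (adjusted p = 0.138) and under robust moderation of the variances (0.168). In the authors' likelihood ratio test, on these same libraries, Atp10a has an adjusted p of 7.81e-05. The model of that test is not given, so the value is neither a test of KO1 against KO2 nor independent support.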

How the results depend on the processing

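The number of called genes moved with most settings, in the order knockout mean minus PBS, KO1 minus PBS, KO2 minus PBS, with 1, 2 and 0 as first reported. It was 0, 0 and 0 after the filter on low means or with array weights, and 6, 2 and 2 on log2 of counts plus 1. It was 8, 7 and 6 on counts plus 10, and 11, 8 and 6 on counts plus 50. It was 16, 26 and 26 when the WT libraries were left out of the fit. Robust moderation gave 1, 0 and 0. Without the C libraries, chosen after seeing the data, it was 34, 42 and 45 over all genes, 3, 3 and 0 after the filter, and 10, 12 and 16 on counts plus 10. Leaving out single libraries gave 0 to 134, 2 to 110 and 0 to 101 calls.

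For the knockout mean minus WT, 0 calls became 29 without the C libraries and 3 there on counts plus 10, and 0 to 9 without single libraries. For KO1 minus KO2, the 1 call became 25 without WT libraries, 38 without the C libraries, 6 there on counts plus 10 and 0 there after the filter. It was 0 after the filter, on counts plus 1 and under robust moderation, and 1 to 13 without single libraries. The cause of these moves was not tested.

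The letters were not taken as pairs. Deviations from the group means correlated between exosome libraries of the same letter at 0.15 to 0.55, and of different letters at -0.44 to 0.13. Between PBS and exosome libraries of the same letter they correlated at 0.02 to 0.15. With the letter as block, limma called 11, 9 and 8 genes against PBS, 0 for KO1 minus KO2, and, after the filter, chosen after seeing the data, 38, 27 and 28 against PBS and 0 for KO1 minus KO2. With no PBS library lettered C, the block treats the level in C as a shifted baseline. The contrasts with PBS then rest mainly on letters A and B. For Acod1 the difference was 2.15 with the block, and 2.09 without the C libraries after the filter. The 11 were Cxcl1, Ifit1, Acod1, Lgals3bp, Ccl2, Ccl5, Cxcl2, Cxcl3, Map3k2 and Rsad2, all higher, and Pip4k2c, lower. Adjusted p was 0.0402 for Rsad2, 0.0112 for Ifit1, 0.00261 for Ccl5, 0.00261 for Cxcl1 and 0.0022 for Acod1, none of which passed without the block in all libraries. After the filter, the 38 held 37 higher genes, among them Irf7, Tnf, Sod2, Ptgs2, B2m and H2-T23, and 1 lower, Ctsc. Letters A and B alone with the block gave 0 calls in each of these contrasts.

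Of 1381 values of named genes under settings other than leaving out a library, 1379 kept their direction. The exceptions were H2-Ab1 (0.16 without the C libraries on counts plus 10) and Acod1 for KO1 minus KO2 (-0.02 with array weights). The filter, the fit without a mean-variance trend, robust moderation and the fit without WT libraries use the same group means as the main fit. Directions could not change there, so the 1379 overstates what was tested. Leaving out a library that a contrast does not use likewise cannot turn its direction. Without single libraries 1129 of 1144 values kept their direction, and the differences from PBS ranged from -0.75 to 0.27 for H2-Ab1, -2.67 to 0.00 for Spp1 and -0.01 to 1.03 for Thbs1. KO1 minus KO2 ranged from -1.35 to 0.81 for Rsad2 and -0.72 to 1.14 for Acod1, and the knockout mean minus WT from -1.28 to 0.70 for Rsad2 and -1.91 to 0.45 for Ccl5. The call of Pip4k2c was lost without the WT libraries (adjusted p = 0.12), with array weights (0.0679), in A and B with the block (0.0578), and on counts plus 1 (0.237) or plus 10 (0.059). The direction of marker sums turned, with exact p still above 0.05, for microglia identity (0.964 on mean log2 values, 0.714 without the highest member), endothelium (0.964 and 0.714), neurons (0.393 and 0.464), and, without the highest member, lymphocytes (0.429), oligodendrocyte precursors (0.429) and fibroblasts (0.643). With 2 PBS libraries and no PBS C, small differences were not detectable.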
